A study of Mus musculus with 2 samples.

Results

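Sass6, Ints14, Cdk5rap1, Eif2b3 and Asxl3 are 5 of the 33083 genes listed in a pair of single-cell libraries from mouse colon. They were put forward because their levels had been seen to differ between the wild-type (WT) library and the library of a mouse model of Alzheimer's disease (AD), and the question was whether each difference was shared by all cell classes or belonged to some of them. The ratios between the libraries below are therefore descriptions of genes chosen on these data. All 5 symbols were found in both libraries, and all 5 passed the minimum of 50 unique molecular identifiers (UMIs, the counted RNA molecules) over both libraries. Both Sass6 and Asxl3 stood higher in AD cells in every class with enough counts, Cdk5rap1 had lower values in all 7 classes compared, by amounts that differed between classes, Ints14 passed 2-fold in the lymphocyte classes, and Eif2b3 was at least 2-fold lower in fibroblast-like cells.

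The study sequenced dissociated colon with the 10x Genomics droplet method. It deposited 1 library of WT mice and 1 library of transgenic AD model mice, named APP/PS1-21 in the series' design text. As background, the transgenes of APP/PS1-21 mice are driven by the Thy1 promoter, which is active mainly in neurons. The labels give no age, sex, treatment or number of animals for either library. With 1 library per genotype, genotype and every other difference between the libraries cannot be told apart, no test between genotypes is possible, and each interval below covers counting error only.

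The genes have unrelated textbook roles. SAS-6, the product of Sass6, forms the central cartwheel on which a new centriole is built, and is best known from dividing cells. INTS14 is a subunit of the Integrator complex, which cleaves and terminates RNA polymerase II transcripts, among them small nuclear RNAs. CDK5RAP1 adds a methylthio group to mitochondrial transfer RNAs. EIF2B3 is the gamma subunit of eIF2B, which recharges the translation initiation factor eIF2 and is a control point of the integrated stress response. ASXL3 is a chromatin protein that works with the histone deubiquitinase BAP1.

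The genes lie on 5 different chromosomes of GRCm38 in the GENCODE M21 annotation. Sass6 spans chr3:116594982-116631004 on the plus strand, Ints14 spans chr9:64960905-64986978 on the plus strand, and Cdk5rap1 spans chr2:154335380-154373010 on the minus strand. Eif2b3 spans chr4:117019402-117087306 on the plus strand, and the place of Asxl3 is given with its values. The start of Sass6 is shown because it is shared with Trmt13, which encodes a transfer RNA methyltransferase. By the RefSeq promoter windows, Trmt13 starts from the opposite strand within the same stretch. In GENCODE M21, Trmt13 instead extends to 116614587, inside Sass6, so that its annotated body overlaps Sass6. The sequence is the RefSeq promoter window on GRCm38.p6, chr3:116594708-116595007, plus strand, from 250 bases before to 50 bases after the annotated start. Capitals mark the 170 bases (from 116594838 to the window's end) that also belong to the promoter window of Trmt13. The window holds 59.0% G and C and 25 CpG dinucleotides.
Sass6 promoter window: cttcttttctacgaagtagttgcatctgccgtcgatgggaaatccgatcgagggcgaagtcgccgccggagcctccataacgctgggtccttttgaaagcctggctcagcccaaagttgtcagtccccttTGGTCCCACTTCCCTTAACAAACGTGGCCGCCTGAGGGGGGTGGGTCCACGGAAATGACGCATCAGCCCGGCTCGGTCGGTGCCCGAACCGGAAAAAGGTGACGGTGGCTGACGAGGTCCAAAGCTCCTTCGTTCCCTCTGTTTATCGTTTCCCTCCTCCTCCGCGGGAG

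The libraries held 4146 barcodes and 26898149 UMIs (WT) and 6675 barcodes and 38731915 UMIs (AD). Mitochondrial UMIs differed between them: the median barcode had 33.4% in the WT library and 12.9% in the AD library. After cells under 500 UMIs, under 200 genes or over 25% mitochondrial UMIs had been removed, 1550 WT and 4691 AD cells were kept, with median depths of 3724.5 and 3720 UMIs. Only 7 barcodes occurred in both libraries. The design text speaks of colonic epithelium, but by markers 547 of the 1550 kept WT cells and 1545 of the 4691 kept AD cells were epithelial-like. Cells took a class from the number of its markers with a UMI, so a class is a range of a score: 39 WT and 140 AD cells sat at the minimum of 3 markers, 87 and 293 at the minimum lead of 2 markers, and 144 and 611 had no class. Ratios were compared in the 7 classes that reached 50 cells per library, which had no marker of another class among their 10 leading genes. They had a median of 2 to 11 UMIs from other classes' markers, counting only non-epithelial markers for the epithelial-like classes.

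Over all kept cells, Sass6 had the largest difference of the 5 genes. Sass6 had 68 UMIs in the WT library and 2216 in the AD library. Its level was 5.49 CPM (UMIs per 1000000 UMIs; interval 4.27 to 6.96) in WT cells and 69.3 CPM (66.5 to 72.3) in AD cells, a log2 ratio of AD over WT of 3.65 (3.31 to 4.03). Asxl3 had 78 and 877 UMIs, 6.30 and 27.4 CPM, and a log2 ratio of 2.11 (1.79 to 2.48). Both genes were thus scarce in the WT library and readily counted in the AD library. Ints14 had 260 and 1339 UMIs, 21.0 and 41.9 CPM, and a log2 ratio of 0.99 (0.80 to 1.19). Cdk5rap1 went the other way, with 378 UMIs in 1550 WT cells and only 194 in 4691 AD cells, 30.5 and 6.07 CPM, and a log2 ratio of −2.33 (−2.59 to −2.08). Eif2b3 had 210 and 360 UMIs, 17.0 and 11.3 CPM, and a log2 ratio of −0.59 (−0.84 to −0.34). Of the 14974 genes with at least 50 UMIs, 3.05% were at least 2-fold higher and 4.42% at least 2-fold lower in AD cells, and the median gene stood at −0.15. Sass6 and Asxl3 are among the former and Cdk5rap1 among the latter. Ints14, at 1.99-fold, lay just short of 2-fold.

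The centriole gene Sass6 was higher in the AD library in 7 of 7 classes by at least 2-fold. The share of all tested genes at least 2-fold higher in AD was 7.64% in goblet-like cells, 5.44% in colonocyte-like cells, 6.62% in other epithelial-like cells, 9.87% in T and NK lymphocyte-like cells, 10.2% in B cell-like cells, 6.91% in fibroblast-like cells and 9.52% in endothelial-like cells. In the 131 WT and 675 AD goblet-like cells Sass6 had 10 and 392 UMIs, which is 3.43 on the log2 scale (2.61 to 4.57). Colonocyte-like cells had 5 and 248 UMIs (4.34, 3.23 to 6.11), and other epithelial-like cells had 15 and 205 (2.69, 1.98 to 3.59), the smallest ratio of the 7. Fibroblast-like cells had 7 and 304 UMIs (3.93, 2.97 to 5.35), and T and NK lymphocyte-like cells had 3 and 112 (4.79, 3.42 to 7.30). B cell-like cells had 1 and 122 UMIs, an 82.7-fold ratio (5.79, 3.86 to 11.7). Endothelial-like cells had 0 and 30 UMIs, so that the AD level was at least 15.0-fold higher against a floor of 3 counts in the WT library. The median log2 ratio over classes was 4.34, or 3.93 with the endothelial-like value at its bound. In 5 of the 7 classes the interval held the value over all kept cells, 3.65; other epithelial-like cells lay below it and B cell-like cells above it.

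By level in the AD library, the lowest of the 7 classes were the epithelial-like ones. Goblet-like, other epithelial-like and colonocyte-like cells had 47.4, 48.0 and 49.6 CPM, with overlapping counting intervals. Fibroblast-like cells had 112 CPM (99.5 to 125), T and NK lymphocyte-like cells 127 (104 to 153), endothelial-like cells 143 (96.3 to 204) and B cell-like cells 166 (138 to 198). Neighbours among these 4 overlapped, while fibroblast-like and B cell-like cells did not. Plasma cell-like cells, which were not compared, had 61.5 CPM (55.9 to 67.6), above the 3 epithelial-like classes in value and below the other 4. Counted per cell instead of as CPM, the order turned round: Sass6 had 33.0 UMIs per 100 T and NK lymphocyte-like cells, 38.2 per 100 B cell-like cells, 40.0 per 100 fibroblast-like cells, 41.1 per 100 endothelial-like cells, and 51.0, 58.1 and 63.8 per 100 other epithelial-like, goblet-like and colonocyte-like cells, beside 50.9 per 100 plasma cell-like cells. The 7 WT classes had from 0 to 8.47 per 100 cells, below each of the 7 AD classes. The highest AD class thus had 1.93 times as many Sass6 UMIs per cell as the lowest. Of the 9192 genes compared in the same way (each in the library where it is higher), 0.305% had a smaller ratio, and the median ratio was 12.0. By CPM the Sass6 range over the AD classes was 3.51-fold, 29.7% of genes were more even, and the median ratio was 5.16. Classes too small for comparison had the same direction, with 4 and 433 UMIs in 49 WT and 850 AD plasma cell-like cells, 13 and 21 in 58 and 28 crypt-like cells, and 0 and 79 in 42 and 161 macrophage and monocyte-like cells.

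**Figure D1:**
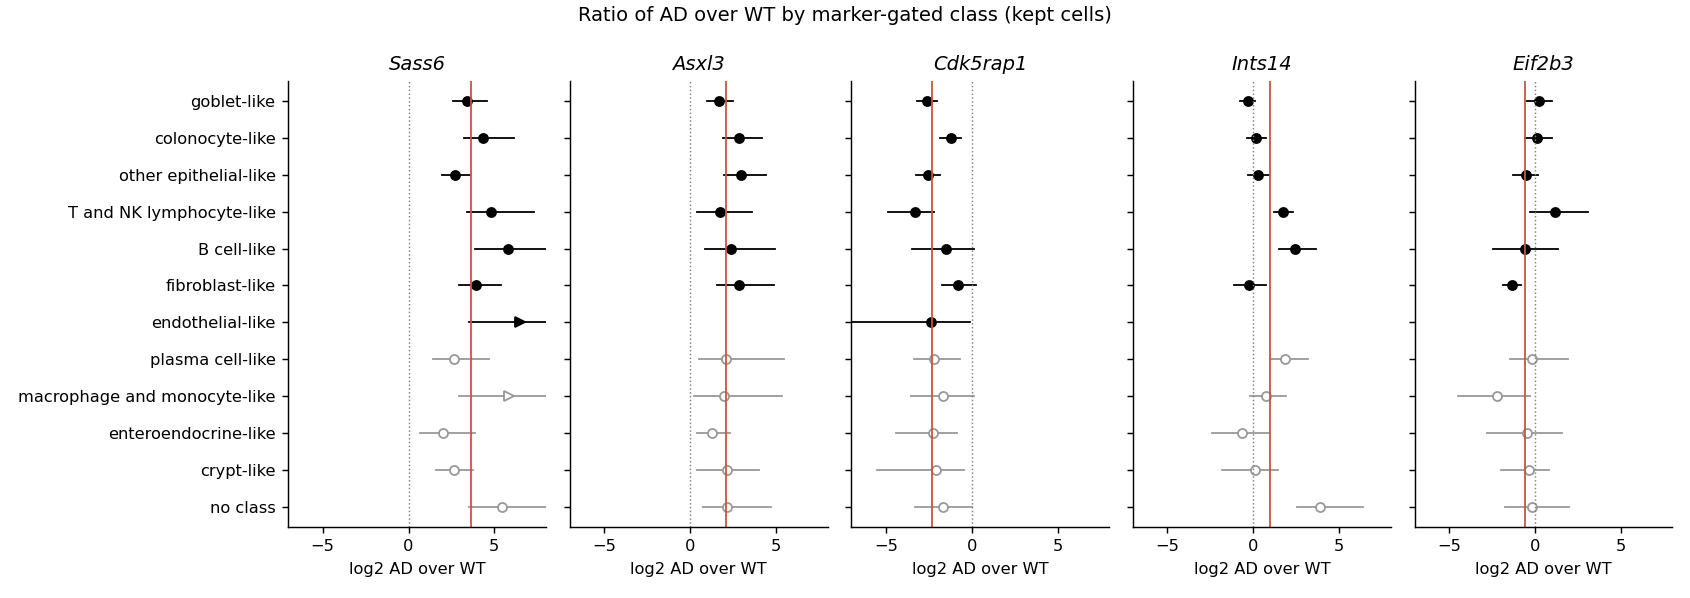
Log2 ratio of AD over WT (x axis) for the 5 genes in each marker-gated class (y axis), with counting intervals as bars, which are cut at the axis limits. Filled points are the 7 classes compared, open grey points are smaller classes and cells with no class, triangles have 0 UMIs in the WT library, rows with under 10 UMIs are blank, and the red line is the ratio over all kept cells. Every Sass6 and Asxl3 point lies right of 0 and every Cdk5rap1 point left of it, while Ints14 is far right only in T and NK lymphocyte-like, B cell-like, plasma cell-like and unclassed cells.

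The chromatin gene Asxl3 (chr18:22344883-22530227, plus strand) was at least 2-fold higher in 6 of the 6 classes with at least 10 UMIs in both libraries together. That minimum could be met through the AD library alone, and WT counts in these classes ran from 3 to 17 UMIs. Goblet-like cells had 17 WT and 192 AD UMIs (log2 1.67, 0.99 to 2.51), colonocyte-like cells 8 and 137 (2.86, 1.92 to 4.18) and other epithelial-like cells 7 and 119 (2.95, 1.96 to 4.39). Fibroblast-like cells had 4 and 84 UMIs (2.82, 1.57 to 4.89). The lymphocyte classes rest on few molecules: T and NK lymphocyte-like cells had 5 and 21 (1.75, 0.41 to 3.61) and B cell-like cells 3 and 26 (2.36, 0.85 to 4.92). All 6 intervals lay above 0 and held the ratio over all kept cells, so the classes could not be ordered by their ratios. AD levels ran from 23.2 CPM in goblet-like to 35.4 CPM in B cell-like cells, and WT levels from 3.37 to 7.12 CPM. Endothelial-like cells had 4 and 4 UMIs (0.58, −1.84 to 3.01), too few to compare, and 19.0 CPM in the AD library. With that class counted, the AD spread was 1.86-fold by CPM, and 3.83% of the 9192 genes were more even. Per cell the spread was 6.43-fold, and 24.3% of genes had a smaller ratio. The highest Asxl3 levels of both libraries were in enteroendocrine-like cells among classes of at least 40 cells in each: 15 UMIs in 41 WT cells (40.2 CPM, 22.5 to 66.2) and 36 in 49 AD cells (100 CPM, 70.1 to 139). There the log2 ratio was 1.29 (0.41 to 2.29), so a class that stood above the others in the WT library stood above them in the AD library too.

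Cdk5rap1, the mitochondrial transfer RNA modifier, was at least 2-fold lower in the AD library in 6 of 7 classes. The share of all tested genes at least 2-fold lower in AD was 5.38% in T and NK lymphocyte-like, 6.45% in goblet-like, 6.68% in other epithelial-like, 8.32% in endothelial-like, 5% in B cell-like, 5.21% in colonocyte-like and 4.17% in fibroblast-like cells. The largest difference was in T and NK lymphocyte-like cells, with 54 UMIs in 211 WT cells and 6 in 339 AD cells, 71.2 and 6.80 CPM, and a log2 ratio of −3.29 (−4.90 to −2.17). Goblet-like cells had 70 and 40 UMIs (−2.59, −3.20 to −2.02), other epithelial-like cells 71 and 25 (−2.53, −3.27 to −1.87) and colonocyte-like cells 47 and 45 (−1.22, −1.84 to −0.60). The colonocyte-like interval did not overlap the goblet-like, other epithelial-like or T and NK lymphocyte-like intervals. Endothelial-like cells had 11 and 1 UMIs (−2.36, −8.30 to −0.09), and B cell-like cells 10 and 5 (−1.49, −3.46 to 0.12), an interval that reaches past 0. Fibroblast-like cells, with 16 and 25 UMIs (−0.79, −1.73 to 0.23), were the class short of 2-fold. The AD classes ran from 4.76 CPM in endothelial-like cells (1 UMI, 0.12 to 26.5) to 9.18 CPM in fibroblast-like cells. With so few AD UMIs in some classes, how level they are cannot be read. The WT classes ran from 15.7 CPM in fibroblast-like to 71.2 CPM in T and NK lymphocyte-like cells. The ratio was nearest to 0 in the class with the lowest WT level and farthest from it in the class with the highest. This order is partly built in, as the WT level is the divisor of the ratio.

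Ints14 had no common ratio. T and NK lymphocyte-like cells had 37 WT and 145 AD UMIs, 48.8 and 164 CPM, and a log2 ratio of 1.74 (1.22 to 2.31). B cell-like cells had 9 and 74 UMIs, 18.1 and 101 CPM, and a log2 ratio of 2.41 (1.48 to 3.66). These were the 2 of 6 classes past 2-fold, where 9.87% and 10.2% of all tested genes were at least 2-fold higher. Goblet-like cells had 62 and 171 UMIs (−0.34, −0.76 to 0.11), colonocyte-like cells 40 and 100 (0.16, −0.38 to 0.73), other epithelial-like cells 32 and 81 (0.29, −0.31 to 0.94) and fibroblast-like cells 15 and 34 (−0.26, −1.15 to 0.75). Over all epithelial-like cells together Ints14 stood at 19.3 and 19.9 CPM, a log2 ratio of 0.04 (−0.23 to 0.32), which does not overlap the lymphocyte intervals. Plasma cell-like cells, 49 in the WT library and 850 in the AD library, had 8 and 480 UMIs (1.86, 0.96 to 3.17). Cells with no class had 3 and 188 UMIs (3.89, 2.54 to 6.40). The ratio over all kept cells, 0.99, thus lay outside the interval of every class compared. Ints14 was also the least evenly spread of the 5 genes in the AD library: it was found in 15.2% of cells, with up to 24 UMIs in 1 cell, and its variance over cells was 3.68 times its mean.

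Eif2b3, the translation factor subunit, was at least 2-fold lower in 1 of 6 classes. In fibroblast-like cells it had 60 WT and 63 AD UMIs, 58.7 and 23.1 CPM, and a log2 ratio of −1.34 (−1.88 to −0.81), where 4.17% of tested genes were as much lower. That class also had the highest WT level of the 6, and the other classes lay between 6.59 and 14.0 CPM. Goblet-like cells had 22 and 90 UMIs (0.22, −0.45 to 0.98), colonocyte-like cells 20 and 50 (0.14, −0.61 to 0.99), other epithelial-like cells 29 and 41 (−0.55, −1.26 to 0.20) and B cell-like cells 6 and 6 (−0.56, −2.46 to 1.34). All 4 intervals include 0. T and NK lymphocyte-like cells had 5 and 14 UMIs, with a ratio of 1.18 and an interval of −0.29 to 3.09. Among classes too small to compare, macrophage and monocyte-like cells had 7 and 4 UMIs (−2.19, −4.48 to −0.29). In the WT library 5 cells held 16.2% of all Eif2b3 UMIs, against 6.39% in the AD library.

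Because the libraries differed in mitochondrial share, each gene was also followed through 4 bands of mitochondrial share over all barcodes, per 1000000 non-mitochondrial UMIs. Sass6 had log2 ratios of 3.68 (up to 10%), 3.65 (10 to 25%), 4.49 (25 to 50%) and 3.85 (over 50%). Asxl3 had 1.70, 2.50, 3.09 and 1.61, and Cdk5rap1 had −2.73, −1.94, −1.38 and −1.83. These 3 genes were past 2-fold in one direction in every band, as were 0.316% (higher) and 0.241% (lower) of the 12010 genes that could be followed. Ints14 went from 1.23 in the lowest band to −1.19 (−3.01 to 0.05) in the highest, where it rests on 37 and 5 UMIs. Eif2b3 went from −0.92 (−1.26 to −0.57) in the lowest band to −0.05 (−1.37 to 1.01) in the highest.

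**Figure D2:**
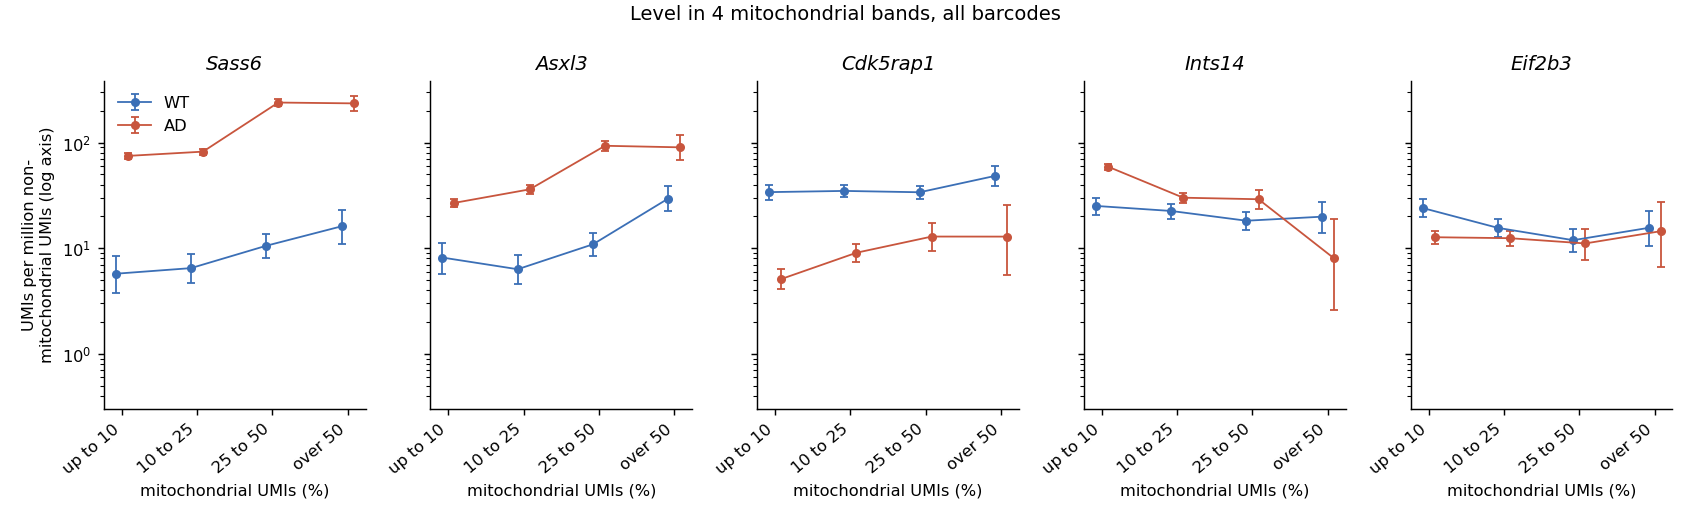
Level of the 5 genes, in UMIs per 1000000 non-mitochondrial UMIs (log axis), against 4 bands of mitochondrial share, in the WT (blue) and AD (red) libraries, with counting intervals. The Sass6 and Asxl3 lines of the AD library lie above those of the WT library in all 4 bands and the Cdk5rap1 line lies below, while the Ints14 lines cross and the Eif2b3 lines meet.

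Sass6 also stood higher in AD cells when class and band were held fixed together. A combination of class and band was used for a gene with at least 20 cells in each library. It also needed at least 10 UMIs of the gene in both libraries together, which 1 library alone could supply. Over the 19 Sass6 combinations the log2 ratio ran from 2.43 (plasma cell-like cells up to 10%) to 6.17 (endothelial-like cells up to 10%, 0 and 25 UMIs). With a library at 0 UMIs set to the floor of 3 counts, the Sass6 ratios ran from 1.12 to 5.27. The AD library had 30.3 to 65.8 Sass6 UMIs per 100 cells and the WT library 0 to 10.0, without overlap. By band alone, the AD library had 45.3, 49.6, 46.8 and 58.9 Sass6 UMIs per 100 barcodes from the lowest to the highest band, and the WT library 2.87, 5.71, 3.59 and 3.87. Asxl3 ratios ran from 1.26 to 4.26 (fibroblast-like cells from 10 to 25%, 0 and 21 UMIs) over 17 such combinations. With the same floor they ran from 1.03 to 3.06. The UMI minimum left out Asxl3 in endothelial-like cells up to 10%, with 3 and 3 UMIs and a ratio of 0.50 (−2.40 to 3.40). It also left out T and NK lymphocyte-like cells from 10 to 25%, with 1 and 5 UMIs (1.40, −1.31 to 7.41). For Cdk5rap1, 15 combinations ran from −2.99 (T and NK lymphocyte-like cells up to 10%) to 1.04 (−0.90 to 4.51). The latter, in fibroblast-like cells from 10 to 25% with 2 and 11 UMIs, was the only one of these 15 above 0. Of those under the UMI minimum, B cell-like cells from 10 to 25% also stood above 0, on 0 and 1 UMIs, and the others below it. Fibroblast-like cells up to 10% had 14 and 14 UMIs and a ratio of −1.45 (−2.63 to −0.27). Ints14 in T and NK lymphocyte-like cells stood at 1.45 (0.91 to 2.04) up to 10% and at 4.01 (1.99 to 9.92) from 10 to 25%, the latter on 1 and 33 UMIs. In B cell-like cells Ints14 stood at 2.30 and 2.46 in the same bands. Of 16 Ints14 combinations, 7 were at least 2-fold higher and 0 at least 2-fold lower. The 7 included plasma cell-like cells up to 10% (1.67, 0.77 to 2.98) and 2 epithelial-like ones. These were colonocyte-like cells from 25 to 50%, with 35 and 35 UMIs (1.14, 0.42 to 1.86), and other epithelial-like cells up to 10%, with 1 and 14 (1.52, −0.67 to 7.45). In fibroblast-like cells the Eif2b3 difference was −1.29 (−1.86 to −0.72) up to 10% and −1.71 (−3.52 to −0.10) from 10 to 25%.

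Sass6 counts in the AD library were only a little higher in deeply sequenced cells. From cells of 500 to 1000 UMIs to cells of over 8000 UMIs, Sass6 had 28.9, 34.7, 38.8, 47.9 and 68.6 UMIs per 100 AD cells in 5 steps, 2.37-fold more at the top, while the mean depth was 22.0-fold higher. In the WT library the same steps gave 0.58, 0.43, 1.44, 4.80 and 11.2, 19.3-fold more at the top for a 30.4-fold higher depth, on 1 UMI in each of the 2 lowest steps. The log2 ratio was accordingly 5.04 and 5.74 in the shallowest steps and 3.05 (2.63 to 3.54) in the deepest. Asxl3 in the AD library had 6.28 UMIs per 100 cells at the bottom and 38.3 at the top, 6.10-fold more, and Cdk5rap1 in the AD library had 0.72 and 9.65, 13.4-fold more. Ints14 and Eif2b3 in the AD library were 19.5-fold and 18.7-fold more at the top, close to the depth itself.

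**Figure D3:**
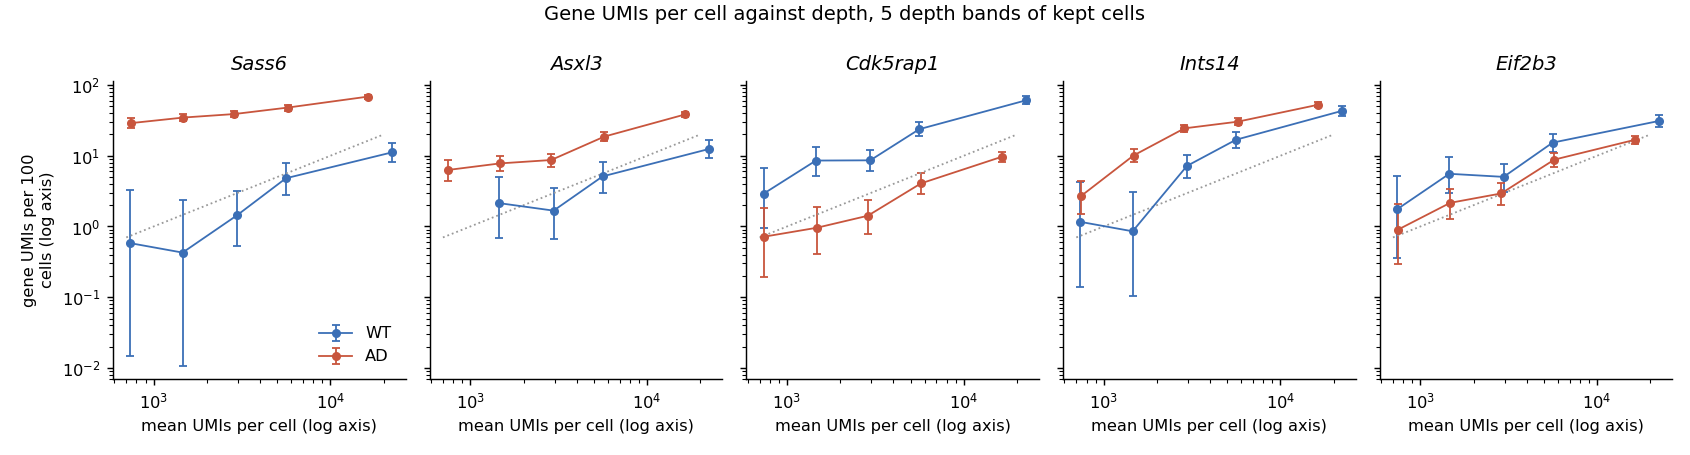
Gene UMIs per 100 cells (log axis) against mean UMIs per cell (log axis) in 5 depth steps of kept cells, WT blue and AD red, with counting intervals. The dotted line has the slope of counts proportional to depth, and steps with 0 UMIs are not drawn. The Sass6 line of the AD library runs from 28.9 to 68.6 and is the flattest of the 10 lines.

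The same was seen with class held fixed. Cells of the 7 classes were split at their class's median depth, and UMIs per cell in the deeper part were divided by those in the shallower part. In the AD library the median of 14594 genes was 3.96, Cdk5rap1 had 3.75, Ints14 3.23, Eif2b3 3.15, Asxl3 2.38 and Sass6 1.57. Only 1.93% of genes were lower than Sass6, and 8.65% lower than Asxl3. In the WT library Sass6 had 3.60, on 32 and 9 UMIs, and 31.5% of genes were lower. Igha and Jchain, which encode the immunoglobulin A heavy chain and its joining chain and are made by plasma cells, were counted in these 7 non-plasma classes too, with ratios of 1.44 and 1.44 in the AD library and 1.23 and 1.12 in the WT library. In the AD library Sass6 lay near Igha and Jchain in its relation to depth, and in the WT library it did not. Other genes lay nearer still in the AD library: Ctla4 had 1.62 and Ly6c2 1.65. In the WT library Ctla4 had 1.40 and Ly6c2 6.58, the latter on 26 and 4 UMIs. Slc24a1, Trmt13 and Snhg6 had 2.22, 3.39 and 3.98 in the AD library. Per cell, Igha had a 6.25-fold and Jchain a 7.14-fold range over the AD classes, and Sass6 a 1.93-fold range. By CPM the order was reversed, with 2.19-fold for Igha, 2.68-fold for Jchain and 3.51-fold for Sass6. No class is known to lack Sass6, so there is no blank class to set its counts against, and the part of free RNA in them was not tested.

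Cell by cell, Sass6 was spread thinly over many AD cells. It had a UMI in 1701 of 4691 AD cells (36.3%, exact interval 34.9 to 37.7) and in 55 of 1550 WT cells (3.55%, 2.68 to 4.59). No AD cell had more than 5 Sass6 UMIs, and the variance over AD cells was 1.10 times the mean, the lowest of the 5 genes. Asxl3 had a UMI in 15.7% of AD (14.7 to 16.8) and 4.06% of WT cells (3.14 to 5.17), and its variance in AD cells was 1.20 times its mean. Cdk5rap1 had a UMI in 3.43% of AD (2.93 to 3.99) and 14.6% of WT cells (12.9 to 16.5). After each cell was thinned to 1000 UMIs, which left out 557 AD and 172 WT cells, Sass6 was found in 10.9% of AD cells (10.0 to 11.9) and in 2 of 1378 WT cells (0.15%, 0.02 to 0.52). Thinned shares for Cdk5rap1 were 0.48% (0.30 to 0.75) in AD and 2.61% (1.84 to 3.60) in WT cells.

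A difference past 2-fold in one direction in every class was rare among all genes. Of 9192 genes with at least 10 UMIs in at least 5 of the 7 classes, 12 (0.131%) were higher in the AD library by 2-fold or more in each of those classes, and 1 (0.0109%) at least 2-fold lower. The 12 included Sass6 and Asxl3, and by their median ratio the 8 highest were Sass6 (4.34), Igha (4.21), Ly6c2 (4.06), Jchain (4.05), Gm5547 (2.98), Asxl3 (2.59), Ctla4 (2.43) and Gfra1 (2.40). With classes at 0 UMIs set to the floor of 3 counts, the Sass6 median was 3.93, below Igha, Ly6c2 and Jchain, and the Gm5547 median was 1.22. Plasma cell-like cells, the source of Igha and Jchain, were 49 of 1550 kept WT cells and 850 of 4691 kept AD cells, and their part in any of these ratios was not tested. Among the genes with a median past 4-fold, the most even levels over AD classes were those of Asxl3 (1.86-fold from lowest to highest), Igha (2.19), Jchain (2.68), Sass6 (3.51) and Ly6c2 (3.64). The lowest Asxl3 class, endothelial-like cells, rests on 4 UMIs. The gene lower in each class was Snhg6, a small nucleolar RNA host gene, with a median of −1.81 and a range of −1.83 to −1.33. Ranked by median, Sass6 stood at place 2 from the top and Asxl3 at place 17. Cdk5rap1 stood at place 2 from the bottom, kept out of the count by fibroblast-like cells. Ints14 (place 2165 from the top) and Eif2b3 (place 1905 from the bottom) lay in the bulk of genes. Setting libraries at 0 UMIs to the floor of 3 counts left 11 genes higher and 1 lower.

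**Figure D4:**
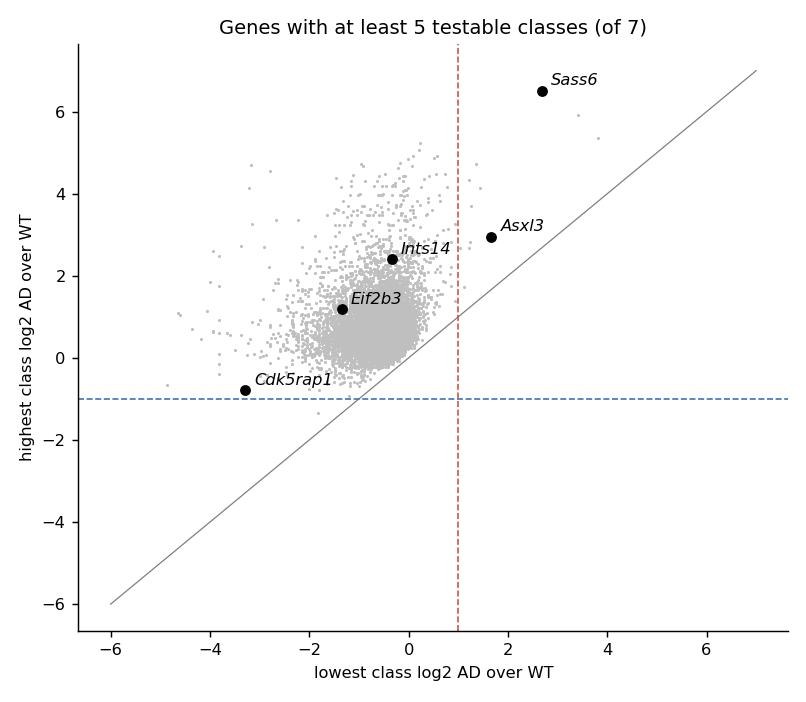
Lowest (x axis) against highest (y axis) class log2 ratio of AD over WT for the 9192 genes, in grey, with the 5 genes in black. Genes right of the red dashed line were at least 2-fold higher in every class tested and genes under the blue dashed line at least 2-fold lower. Sass6 and Asxl3 lie right of the red line, Cdk5rap1 just above the blue line, and Ints14 and Eif2b3 within the cloud.

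The neighbours of Sass6 did not share its difference. Trmt13, whose promoter window overlaps that of Sass6 in the capitals printed above, had 68 WT and 135 AD UMIs, 5.49 and 4.22 CPM, and a log2 ratio of −0.38 (−0.81 to 0.06). Mfsd14a, a transporter-family gene that ends 159 bases past the end of Sass6 on the other strand, had 702 and 1556 UMIs and a ratio of −0.22 (−0.35 to −0.09). Lrrc39, on the other side, stood at −0.08 (−0.64 to 0.52). An antisense gene over the end of Sass6, Gm42893, had 0 UMIs in both libraries. Whether counting used the strand is not given in the sources used here, so molecules from the overlapping Sass6, Trmt13 and Gm42893 could be assigned to each other.

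Next to Ints14 the picture differed. Slc24a1, an ion exchanger gene 9297 bases away on the other strand, had 108 and 805 UMIs and a log2 ratio of 1.52 (1.24 to 1.83). Its UMIs were mostly in lymphocyte-like and plasma cell-like cells, with 41 and 121 in T and NK lymphocyte-like cells (1.33, 0.82 to 1.89) and 20 and 125 in B cell-like cells (2.05, 1.39 to 2.84), while each of the 3 epithelial-like classes compared had 1 WT UMI and from 7 to 12 AD UMIs. Hacd3, a fatty acid elongation gene that ends 4 bases from the end of Ints14 on the other strand, stood at 0.18 (0.04 to 0.31) over all kept cells, at 0.58 (0.24 to 0.93) in T and NK lymphocyte-like cells and at 1.86 (0.83 to 3.23) in B cell-like cells. In cells with no class Hacd3 had 10 and 166 UMIs, and its ratio was 2.12 (1.27 to 3.28). Both flanking genes were thus higher in the AD library in the lymphocyte classes where Ints14 was, but not throughout: in plasma cell-like cells Slc24a1 had 17 and 369 UMIs (0.44, −0.22 to 1.27), and in fibroblast-like cells Hacd3 had 23 and 98 (0.65, 0.01 to 1.40), where Ints14 stood at 1.86 and −0.26. Around the other genes, Cbfa2t2 near Cdk5rap1 stood at −0.17 (−0.38 to 0.05) and Hectd3 beside Eif2b3 at −0.24 (−0.43 to −0.04). Beside Asxl3, Ccdc178 stood at 0.74 (−0.07 to 1.73) and Nol4 at −0.74 (−1.24 to −0.21).

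Genes of the same complexes and processes passed 1.5-fold at shares near those of all genes or below them. Of 23 centriole assembly genes, 0 were higher in AD cells by 1.5-fold or more and 4 at least 1.5-fold lower: Rttn (−0.96), Poc1a (−0.67), Plk4, the kinase that starts centriole duplication (−0.62), and Cdk5rap2 (−0.59, but 0.22 as the median of its classes). Their median was −0.30, beside −0.15 over all genes, of which 7.04% were as much higher and 13.2% as much lower. Stil and Cenpj, which join SAS-6 in building the centriole, stood at −0.53 (−0.77 to −0.30) and −0.49 (−0.85 to −0.10). Of 14 measured Integrator genes, 0 were higher and 2 lower, Ints11 (−0.71) and Ints8 (−0.62), with a median of −0.17. Ints13 and Ints10, which form a module with INTS14, stood at 0.03 (−0.15 to 0.20) and −0.20 (−0.43 to 0.03). Of 17 transfer RNA modification genes, 0 were higher and 3 lower, Trmt61b (−0.84), Osgepl1 (−0.69) and Trmu (−0.59), with a median of −0.29. Cdkal1, which carries out the methylthio reaction on cytosolic transfer RNA, stood at −0.19 (−0.32 to −0.05). Of 11 measured eIF2 and eIF2B genes, 1 was higher, Eif2ak3, the endoplasmic reticulum stress kinase PERK (0.86, 0.76 to 0.96), and 0 were lower. Within classes Eif2ak3 had a median of 0.10 and a range of −0.81 to 0.74, all below the value over all kept cells. The other eIF2B subunit genes Eif2b1, Eif2b2, Eif2b4 and Eif2b5 ran from −0.37 to −0.02. Of 10 genes of the ASXL and BAP1 group 0 passed in either direction, and Asxl1 and Asxl2 stood at 0.41 (0.29 to 0.54) and −0.22 (−0.34 to −0.09).

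For reference, 1 of 14 measured housekeeping genes was at least 1.5-fold higher (Gusb, 0.66, but −0.19 as the median of its classes) and 2 lower (Ppia, −0.92, and Gapdh, −0.68). The mouse genes App and Thy1 stood at −0.20 and −0.47 over all kept cells and at 0.20 and 0.22 as medians of their classes. Of 6 sex-linked genes, Tsix alone reached 50 UMIs, with 30 in the WT and 81 in the AD library (0.05). Xist and Eif2s3y had 0 UMIs in both libraries. Ddx3y had 1 WT and 9 AD UMIs, Kdm5d 0 and 4, and Uty 0 and 5, so the sex of the animals was not read from these counts. Ints2, Eif2s2 and B2m were also listed at 0 in both libraries. B2m is used by nearly all cells, so a listed 0 is a fact about the counting and is not read as absence.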

How the data were processed

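Each library was made from dissociated colon by droplet single-cell RNA sequencing. The authors deposited unnormalized counts, whole numbers of UMIs for each gene in each barcode; the submitters' processing notes name Cell Ranger 3.0.1, STAR, Seurat 3.0.2 and the mm10 build, and their settings and the annotation release are not given in the sources used here. No barcode had under 500 UMIs. From the deposited counts, UMIs were summed per library over kept cells and over marker-gated classes, and divided by all UMIs of those cells. A cell took a class with at least 3 of its markers detected and a lead of 2 over any other class of the same level; of 171 markers, 3 T cell receptor genes were not matched. No doublet caller was run. The lead leaves out cells whose best class is under 2 markers ahead, while cells with fewer markers of another class stay in. Epithelial-like cells that reached no subclass were kept as other epithelial-like.

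Log2 ratios add 0.5 counts to each sum. Intervals are exact 95% intervals of the ratio conditional on the total count, of a Poisson count, or of a share (Clopper-Pearson). No test was made, as each genotype has 1 library. A class counted for a gene with at least 10 UMIs in it over both libraries together, which 1 library alone could supply. A gene at 0 in one library is given against a floor of 3 counts. Coordinates and neighbours are from GENCODE M21, in which 31350 of 33083 gene identifiers were found, all 5 genes included, and the promoter sequence from RefSeq (3 of the 5 genes have an entry). The named genes are the 5 genes, their annotated neighbours (some are not reported here), at most 4 genes of each list by size of ratio, with direct partners of the 5 and the reference genes beside them chosen after their values were seen, and, of genes past 2-fold in every class, the 8 highest and 8 lowest by median and the 5 most even each way past 4-fold. The 5 genes, the gene lists, the markers and the rules were chosen with earlier results of these data known. The ratio script was tested on simulated data. Alternatives changed the mitochondrial limit, depth, weighting, scaling, markers, fold and count minimum. Sums and intervals were computed with scipy 1.17.1, numpy 2.4.6 and pandas 2.3.3 under Python 3.11.15, and plots with matplotlib 3.10.9.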

Additional observations from a re-analysis of the deposited data

How the results depend on the processing

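Each ratio over all kept cells was recomputed under 13 alternatives, and 0 of them changed its direction. Sass6 ranged from 3.38 to 6.04 on the log2 scale, Ints14 from 0.67 to 1.45, Cdk5rap1 from −2.79 to −1.98, Eif2b3 from −0.998 to −0.15 and Asxl3 from 1.62 to 2.41. With cells of at most 10% mitochondrial UMIs Cdk5rap1 stood at −2.79, Eif2b3 at −0.998 and Asxl3 at 1.62. With at most 50% Ints14 stood at 1.19, Cdk5rap1 at −2.05 and Eif2b3 at −0.27. With no limit they stood at 1.29, −1.98 and −0.15. Thinning each cell to 1000 UMIs gave 6.04 for Sass6, where the WT library kept UMIs in only 2 cells, and 1.44 for Ints14. With every cell weighing the same Sass6 stood at 4.68, Ints14 at 1.45 and Eif2b3 at −0.86. With every class weighing the same Sass6 stood at 4.50, Ints14 at 0.67, Cdk5rap1 at −2.04 and Eif2b3 at −0.15. Scaling by the median of gene ratios moves all genes up by 0.15, since the median gene stood at −0.15. The cause of these shifts was not tested.

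The 13 genes past 2-fold in every class became 8 with 2 markers and a lead of 1 (2 shared with the 13), 49 at 1.5-fold (32 higher and 17 lower, Cdk5rap1 among the latter), and 5 with classes of at least 20 cells, an alternative chosen after seeing the data (2 shared). With at most 50% mitochondrial UMIs there were 14 genes, of which 3 were among the 13. Under every alternative that gave a count Sass6 and Asxl3 remained. With at most 10% mitochondrial UMIs only 4 classes had 50 cells in each library, so no gene could reach 5 and no count was made. Depth limits the lymphocyte and endothelial-like classes most, where a gene often rests on under 10 WT UMIs. No paired analysis was possible because each genotype has 1 library.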
